A study of Oncorhynchus mykiss with 20 samples.

Results

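Genes of the contractile apparatus of smooth and striated muscle were followed in the whole intestine of young rainbow trout (Oncorhynchus mykiss). Members were taken by gene symbol from a RefSeq gene table: myosin light and heavy chains, tropomyosins, troponins, calponins and transgelins, smoothelins, leiomodins, synemin, PDLIM proteins, parvalbumins, muscle creatine kinases, calcium pumps, myomesins, titin and their relatives. The table held 44 such genes, of which 26 had a matched transcript in the files, among 6926 genes with a symbol and 61670 features in all. Of these 26, 17 passed the filter on low counts and were tested, 7 fell below it (myl13, pvalb2, pvalb9, tnnc1a, tnni1b, tnni1c and tnnt2b) and 2 had no count in any of the 20 libraries (myom3 and ttn.1). The other 18 members, among them mybpc3, myh6, ryr1b and tnnt3a, had no matched transcript and were not analysed here. Symbols for the smooth muscle actin and myosin heavy chain were not among the matched genes, so the smooth muscle is seen here through smoothelins, a leiomodin, tropomyosins, synemin and light chains.

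The gut wall carries layers of smooth muscle that mix the food and move it along. Smooth muscle contracts when calcium, through calmodulin and a kinase, leads to phosphorylation of the myosin regulatory light chain; skeletal and cardiac muscle instead use troponin on the thin filament, ordered sarcomeres held at the M band by myomesins, and a calcium pump and parvalbumin that take calcium away. Many light chains and tropomyosins are also part of the cytoskeleton of cells that are not muscle, so in whole intestine they do not mark a muscle layer by themselves. In a bulk sample, fewer cells of a type and less RNA per cell cannot be told apart.

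The fish were all-female cohorts of a selected strain (ARS-KO, here Select) and a common commercial strain (Commercial), sampled at 20 or 65 days post hatch (dph). Each strain has 5 libraries at each age, which makes 4 groups. Both strains were reared together as eggs, then kept after hatching in separate flow-through raceways of spring water and fed a commercial starter diet, so strain and raceway cannot be told apart. The labels call the replicates biological but do not say whether a library is 1 fish or a pool, so p-values measure the spread between these libraries. Stranded libraries of poly(A) RNA from whole intestines were sequenced, and each library holds between 7314588 and 13682738 expected counts (the estimated number of read pairs assigned to transcripts).

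Some libraries stood apart, and members whose call changes with them are given both ways. Select 20 dph replicate 1 was far higher than all others in skeletal muscle genes, as described below; it is left out of the tests, which use 19 libraries, and it was set apart for values of these very genes. Commercial 65 dph replicate 2 and Select 65 dph replicate 5 lay side by side on the second principal component of log2 CPM (-65.9 and -67.4), while the other 4 Commercial 65 dph libraries lay between 45.1 and 56.2 and the other 4 Select 65 dph libraries between -16.7 and 3.36. The enterocyte gene vil1, which codes for the brush border protein villin, stood at 1752 to 3319 CPM (counts relative to library size after TMM correction) in all 20 libraries.

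Levels between genes were compared in TPM (an abundance scaled by transcript length and by depth), averaged over 19 libraries. The tropomyosin tpm2 was the highest member at 728 TPM (SD 327), ahead of the light chains myl12.1 at 396 TPM (SD 48.4) and myl6 at 314 TPM (SD 54.0), which serve non-muscle and smooth muscle myosin. These ranges overlapped, from 409 to 1588 TPM for tpm2, from 318 to 482 TPM for myl12.1 and from 216 to 424 TPM for myl6. Within each of the 19 libraries, however, tpm2 was above both light chains. Next came a group whose ranges across libraries overlapped. It held the cytoskeletal tropomyosin tpm4a at 29.4 TPM, smoothelin b (smtnb) at 28.0 TPM and pdlim5b at 17.5 TPM. The leiomodin lmod1b at 17.4 TPM and smoothelin a (smtna) at 17.2 TPM belonged to it too. Differences between the genes of this group within libraries were not tested. The intermediate filament gene synm averaged 7.28 TPM and the transgelin tagln3b 5.58 TPM.

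Striated members were low in the same 19 libraries. The light chain mylpfb led them at 12.1 TPM, followed by pvalb1 at 5.70 TPM, myl1 at 3.13 TPM, ckmb at 1.82 TPM and atp2a1l at 0.942 TPM, and the 4 troponin genes tnnc1a, tnni1b, tnni1c and tnnt2b averaged at most 0.167 TPM. The summed TPM of the 16 striated members ran from 14 to 45.4 in 18 libraries and reached 82.9 in Select 65 dph replicate 4. In some libraries most of this sum was mylpfb, 12.5 of 14 TPM in Select 20 dph replicate 4 and 13.9 of 15.1 TPM in Select 65 dph replicate 1. In Commercial 20 dph replicate 2 it was 6.05 of 45.4 TPM.

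In Select 20 dph replicate 1 the same sum was 3051 TPM. Parvalbumin 1 (pvalb1), which buffers calcium in fast muscle of fish, stood there at 1344 TPM against at most 41 TPM in any other library. Its relative pvalb2 stood at 757 TPM against at most 7.28 TPM. The calcium pump atp2a1l, of the kind that refills the sarcoplasmic reticulum, stood at 452 TPM against at most 10.3 TPM. Since this library was set apart for high values of such genes, the margins of these 3 genes and of the other striated members are a description.

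Of the remaining striated members in that library, some were above the other libraries, and most of the rest had few or no counts. The muscle creatine kinase ckmb was at 270 TPM and the fast light chain myl1 at 182 TPM, with 5.93 and 11.1 TPM as the highest values elsewhere. The M-band genes followed, myom2b at 15.5 TPM and myom1b at 11.7 TPM, each below 1 TPM in the other 19 libraries. In all, 9 of the 16 striated members lay above the other 19 libraries and 7 lay within their range. Of these 7, myom3 and ttn.1 had no count in any library. The genes pvalb9, tnnc1a, tnni1b and tnnt2b had 0, 1, 1 and 3 counts there, too few to place them. The last was mylpfb at 10.9 TPM and 164 counts, whose symbol is that of a fast skeletal light chain. Among the 10 smooth muscle, shared and broadly expressed members, 4 lay below the other 19 libraries (tpm2, myl12.1, smtna and tagln3b) and 6 within. Shares of all features above or below are not given here, so the counts of members in these positions are a description.

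Some genes outside the contractile list stood out in the same library. Above the other 19 libraries were 4 of 10 matched genes of skeletal excitation and energy, 4 of 7 myogenic regulators and 4 of 5 liver genes. The share of all features in that position is not given here, so these counts are a description. Several genes above were low: mef2cb at 1.07, mymk at 1.21, six1a at 1.34 and trim63b at 1.74 CPM. The liver gene tf was at 1.88 CPM against at most 1.64 CPM elsewhere. The rest of these lists lay within the others' range, among them the myoglobin gene mb at 0.134 CPM and myf6, pax7a and pax7b at 0. The excitation-contraction genes stac3 and trdn were at 14.9 and 5.90 CPM there, against at most 0.926 and 0.486 CPM elsewhere, and the myogenic factor myog was at 2.15 CPM against at most 0.123 CPM. The liver genes tfa (transferrin), f2 (prothrombin) and plg (plasminogen) were at 8993, 707 and 624 CPM, against at most 165, 73.0 and 4.41 CPM elsewhere, while cps1 at 2.01 CPM lay within the others' range. Of 8 enterocyte genes 5 lay below the other 19 libraries, a description too, as the share of all features there is not given. The part of the genes of these lists in the values of the muscle genes was not tested.

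**Figure D1:**
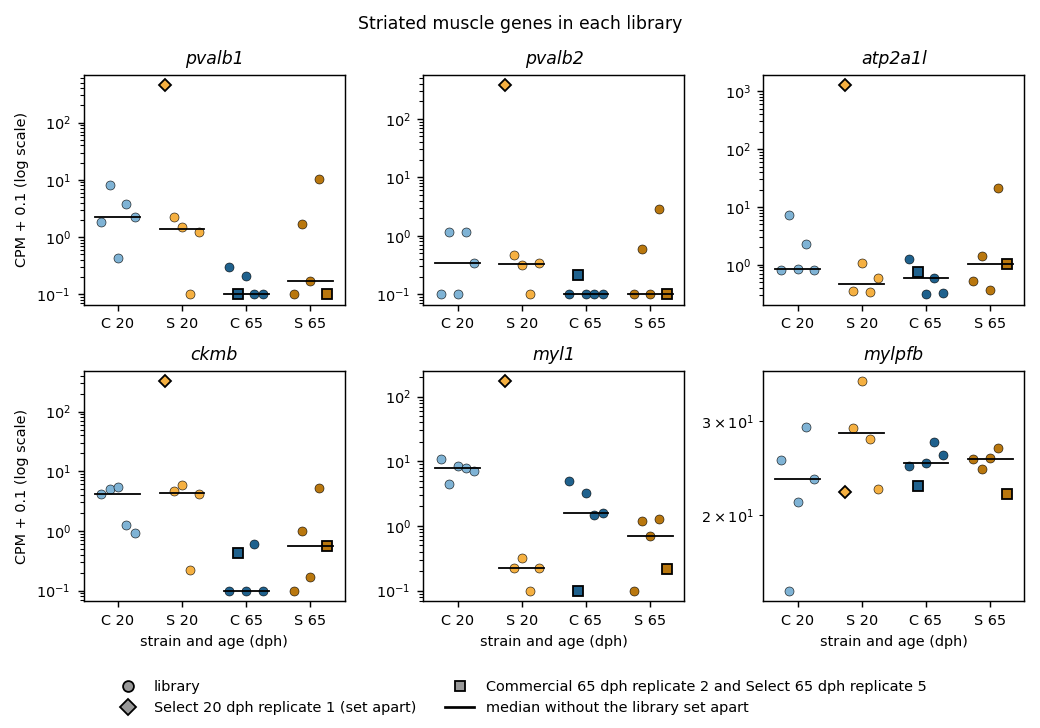
Each point is the level of a striated muscle gene in 1 library, as CPM + 0.1 on a log axis, for Commercial (C) and Select (S) at 20 and 65 dph; the line is the group median without the library set apart. The diamond, Select 20 dph replicate 1, reaches 457 CPM for pvalb1 and 1280 CPM for atp2a1l, whereas mylpfb stays at 22.0 CPM there, and Select 65 dph replicate 4 is the highest of its group for pvalb1 at 10.4 CPM.

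A smaller trace of 4 of these 9 genes was present in Select 65 dph replicate 4. It held pvalb1 at 41 TPM, pvalb2 at 7.28 TPM, atp2a1l at 10.3 TPM and ckmb at 5.93 TPM, each the highest TPM of its gene among the 19 libraries. In CPM ckmb was not the highest there, at 5.21 against 5.76 in Select 20 dph replicate 3. The myomesin myom1b, also high in the library set apart, was at 0.237 CPM, the lowest of the 19, and myom2b at 1.07 CPM was inside their range. For every unit of pvalb1, that library held 0.177 units of pvalb2, 0.251 of atp2a1l and 0.145 of ckmb. The library set apart held 0.563, 0.336 and 0.201. Other libraries with pvalb1 had such mixes too, 0.225, 0.101 and 0.165 in Select 65 dph replicate 2 and 0.0882, 0.109 and 0.180 in Commercial 20 dph replicate 2. The units of ckmb reached 4.74 in Commercial 20 dph replicate 3. For the light chain myl1 the units per unit of pvalb1 were 0.0413 in Select 65 dph replicate 4 and 0.135 in the library set apart. They were 0.0226, 0.0568 and 0.0514 in Select 20 dph replicates 2, 3 and 5, and between 0.200 and 9.32 in the Commercial 20 dph libraries.

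The first question of the design is what changed between 20 and 65 dph within a strain. Tests were edgeR quasi-likelihood F-tests with Benjamini-Hochberg adjustment over 33171 features, called at an adjusted p under 0.05; log2 fold changes are 65 over 20 dph with an approximate SE. In Commercial 30.3% of all features were called (14.6% higher and 15.7% lower), against 5 of the 17 tested members, all lower: ckmb, pvalb1, myom1b, myl12.1 and tpm4a. In Select 31.1% of all features were called (14.8% higher and 16.3% lower), against 4 members, of which smtnb and tagln3b were higher and myl12.1 and tpm4a lower. The members' median log2 fold change was -0.04 in Commercial, beside 0.06 over all features, and 0.30 in Select, beside 0.10 over all features. The count of members called was thus near the background in Commercial and a little under it in Select.

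The direction of these calls depends on the scaling. The TMM factors, which correct library sizes for shifts in composition, averaged 0.902 in Commercial and 0.919 in Select at 20 dph and 1.09 and 1.11 at 65 dph. With plain library size the median over all features moved from 0.06 to 0.33 in Commercial and from 0.10 to 0.37 in Select. Of all calls, 73.8% were then higher in place of 48.2% in Commercial, and 71.7% in place of 47.6% in Select. Members then counted 4 higher (smtnb, lmod1b, tagln3b and mylpfb) and 2 lower (ckmb and pvalb1) in Commercial, beside 25.3% and 9.01% of all features. In Select 4 were higher (smtnb, lmod1b, tagln3b and atp2a1l) and 0 lower, beside 25.1% and 9.88%.

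**Figure D2:**
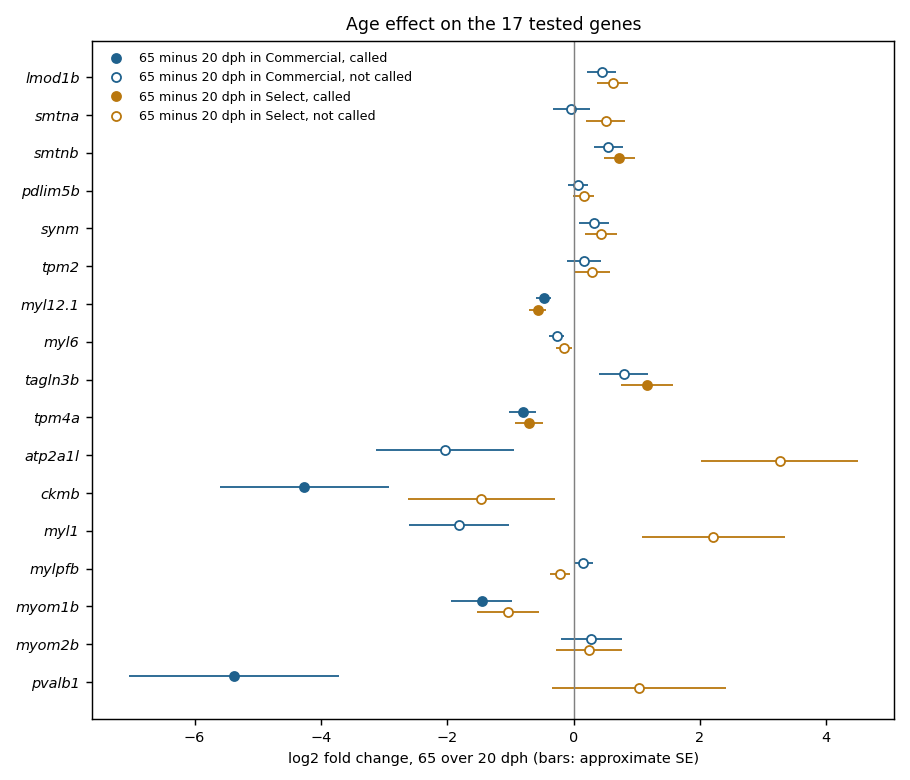
Log2 fold change of the 17 tested members between 20 and 65 dph in each strain, with TMM scaling; bars are approximate SEs, and filled points have an adjusted p under 0.05. The smoothelin, leiomodin and transgelin points lie to the right of 0, apart from smtna in Commercial at -0.04, while myl12.1 and tpm4a lie to its left in both strains, and pvalb1, atp2a1l and myl1 lie on opposite sides of 0 in the strains, with wide bars.

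Among the striated members, ckmb, pvalb1 and myom1b fell with age in Commercial. The parvalbumin pvalb1 stood at 1.69, 8.10, 0.327, 3.75 and 2.14 CPM in the 5 Commercial libraries at 20 dph and at 0.193, 0, 0.106, 0 and 0 CPM at 65 dph. All 20 dph libraries were above all 65 dph libraries, which held for 3 of 17 members (pvalb1, ckmb and myl12.1) beside 10.6% of all features. It fell by 5.38 ± 1.66 on the log2 scale (adjusted p = 0.0207). Because the older group held 3 counts in all against 142, the ratio of summed counts, each divided by its group's summed TMM-corrected library size, is given too, 47.3-fold, with a 95% exact binomial interval of 15.8 to 232 that covers counting error only.

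Muscle creatine kinase, which regenerates ATP next to the myofibrils, behaved alike in Commercial. The gene ckmb stood at 4.01, 4.97, 5.34, 1.17 and 0.834 CPM at 20 dph and at 0, 0.326, 0, 0.497 and 0 CPM at 65 dph. The ages did not overlap, and ckmb fell by 4.26 ± 1.33 (adjusted p = 0.0223), from 154 counts to 7. Without Commercial 65 dph replicate 3 its adjusted p was 0.0504. The myomesin myom1b fell by 1.45 ± 0.49 (adjusted p = 0.0307) from a mean of 1.44 to 0.514 CPM, and that call was lost, at adjusted p of 0.0517 to 0.0737, on leaving out any of Commercial 20 dph replicates 3, 4 and 5 and Commercial 65 dph replicates 1, 4 and 5. With library size alone its adjusted p was 0.0814. The pump atp2a1l was not called in Commercial (-2.03 ± 1.09, adjusted p = 0.177). Without Select 65 dph replicate 4 it was just called (-2.04 ± 0.75, adjusted p = 0.049995). With Select 20 dph replicate 1 in the fit, the adjusted p values of pvalb1, ckmb and myom1b in Commercial were 0.172, 0.123 and 0.293, and 15.6% of all features were lower there.

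In Select none of these genes was called with 19 libraries. The gene ckmb stood at 4.51, 5.76, 0.122 and 4.04 CPM in the 4 Select libraries at 20 dph and at 0, 0.904, 0.0677, 5.21 and 0.463 CPM at 65 dph. The ages overlapped through 1 low library at 20 dph and through replicate 4 of the older group. The fitted change was -1.46 ± 1.16 (adjusted p = 0.368) and, without Select 65 dph replicate 4, -3.34 ± 1.19 (adjusted p = 0.0459). The pump atp2a1l had 3.26 ± 1.24 with that library (adjusted p = 0.0542) and 0.54 ± 0.84 without it (adjusted p = 0.676). Omitting any of Commercial 20 dph replicate 2 and Select 65 dph replicates 1, 2, 3 and 5 instead gave adjusted p values of 0.0336 to 0.0480 for atp2a1l. For pvalb1 the value went from 1.04 ± 1.37 to -1.47 ± 1.29 on leaving out the same library. The light chain myl1 had 2.21 ± 1.14 (adjusted p = 0.153), and 2.45 ± 0.88 without the alike pair (adjusted p = 0.0467). Both fits leave out Select 20 dph replicate 1, at 172 CPM of myl1, so these values are a description of the libraries kept.

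With Select 20 dph replicate 1 in the fit, 8 of the tested members were lower at 65 dph in Select, beside 17.9% of all features. These were myl1, pvalb1, atp2a1l, ckmb, myom1b and myom2b with myl12.1 and tpm4a, so all 6 calls added among the lower members were striated genes that are high in that library; lmod1b was then called as higher (0.67, adjusted p = 0.0312). No striated member differed between the strains in its age effect by the interaction test, which called 0 of 33171 features (DESeq2 called 104 and limma-voom 0, and 2278 had an unadjusted p under 0.05). The interaction values were 6.42 ± 2.18 for pvalb1 (adjusted p = 0.679) and 5.30 ± 1.65 for atp2a1l (adjusted p = 0.678).

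Some liver and pancreas genes were also lower in the older fish. Of 4 tested liver genes 1 was lower in Commercial and 2 in Select, none was higher, and both counts were the same with library size alone. Over all features 15.7% were lower in Commercial and 16.3% in Select, and 9.01% and 9.88% with library size alone. With so few genes, these counts and those of the pancreas genes are a description. The summed CPM of the 5 matched liver genes ran from 13 to 215 in Commercial at 20 dph and from 4.15 to 21.1 at 65 dph, so that the ages overlapped, and in 4 Select libraries from 17.9 to 110 and then from 3.05 to 17.3. The prothrombin gene f2 fell by 4.72 ± 0.92 in Commercial (adjusted p = 0.000928) and by 3.75 ± 0.89 in Select (adjusted p = 0.00405), and cps1 fell by 2.96 ± 0.89 in Select (adjusted p = 0.0172). Of 2 matched exocrine pancreas genes, cpa5 and ela2l, both fell in both strains, but with library size alone or without the alike pair ela2l was not called in Select (adjusted p = 0.0673 and 0.0918). Of 7 matched myogenic regulators none was tested, and their summed level stayed at or below 1.86 CPM in the 19 libraries. The part of RNA from organs next to the gut in the striated values was not tested.

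The second question is how the strains differ at a given age, and here the fast essential light chain myl1 had the largest fold change of the 17 members at 20 dph. At 20 dph the 5 Commercial libraries held it at 10.8, 4.39, 8.38, 7.85 and 7.03 CPM. The Select libraries 2 to 5 held it at 0.125, 0.217, 0 and 0.123 CPM, and the library set apart at 172 CPM. Without the latter the strains did not overlap, with Select lower, which held for 1 of 17 members beside 1.93% of all features. That library was left out for its high values of skeletal muscle genes, and myl1 is one of them. The gap, the ratio and the fold changes and adjusted p values of myl1 at 20 dph therefore describe the libraries kept. Since leaving that library out lowers the Select level of myl1, the adjusted p values do not test a strain difference. The counts were 362 in Commercial and 4 in Select, over 5 and 4 libraries, and the ratio scaled for the groups' TMM-corrected library sizes was 66.1, with a 95% exact binomial interval of 25.6 to 244 for counting error alone.

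The fit gave myl1 a Select over Commercial log2 fold change of -5.87 ± 1.15 at 20 dph with an adjusted p of 0.0516, just outside the threshold. The test called 46 features there, 0.139% of all (0.102% higher and 0.0362% lower), and 0 members. As a description of the libraries kept, the adjusted p of myl1 was 0.0109 without both alike libraries (a fit in which 0.0586% of features were lower). It was 0.0125 without Commercial 65 dph replicate 2 and 0.0419 without Select 65 dph replicate 1. With DESeq2, which had 0.748% of features lower, it was 3.9e-05. With the library set apart in the fit the value was 2.24 in the other direction (adjusted p = 0.650). Of 19 fits that each left out 1 library, 17 kept myl1 uncalled, and the 2 that called it are those named above. No member was called there with RLE factors, limma-voom, other filters, the replicate block or library size alone. In Commercial all reads of myl1 went to transcript XM_021581343.1.

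At 65 dph myl1 stood at 4.92, 0, 3.07, 1.37 and 1.47 CPM in Commercial and at 0, 1.11, 0.610, 1.18 and 0.116 CPM in Select. The 4 Commercial libraries with counts were above all Select libraries, and the fifth, replicate 2, had no count. The log2 fold change was -1.84 ± 0.84 (adjusted p = 0.713). In Select 20 dph replicates 2 to 5 myl1 had 1, 2, 0 and 1 counts, pvalb1 had 17, 13, 0 and 9, and ckmb had 36, 53, 1 and 33. In 3 of these 4 libraries pvalb1 and ckmb were thus present beside 1 or 2 counts of myl1, and in replicate 4 all 3 genes were at or near 0. The largest fold change of a member at 65 dph was that of pvalb1, 4.97 ± 1.65 (adjusted p = 0.584), which was 2.47 ± 1.45 without Select 65 dph replicate 4. At that age no feature was called between strains by edgeR (0%), while 2276 had an unadjusted p under 0.05 and DESeq2 called 173 and limma-voom 0.

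For the smooth muscle and shared members no strain difference was called at either age. At 20 dph their log2 fold changes, Select over Commercial, ran from -0.31 ± 0.31 for smtna to 0.14 ± 0.17 for pdlim5b. At 65 dph they ran from -0.13 ± 0.24 for synm to 0.24 ± 0.16 for pdlim5b. The value of tpm2 was -0.06 ± 0.29 at 20 dph and 0.07 ± 0.27 at 65 dph. Over these 6 genes and both ages the adjusted p ran from 0.816 to 0.994.

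For tpm2 the SD between libraries was 233 CPM in Commercial and 95.4 CPM in Select at 20 dph, and 594 and 520 CPM at 65 dph, where the alike pair stood out. In mammals smoothelins mark contractile smooth muscle, leiomodin promotes growth of actin filaments in it, and tropomyosin lies along those filaments. The gene tpm2 stood at 908, 2304, 1087, 854 and 1191 CPM in Commercial 65 dph and at 965, 1425, 970, 1098 and 2199 CPM in Select 65 dph. Commercial replicate 2 and Select replicate 5 were at 2.24 and 2.14 times the median of the other 8 libraries of that age. For smtna they were at 2.28 and 2.48 times, and for tagln3b at 2.93 and 2.47 times.

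In all, 7 of the 17 tested members had both libraries above the other 8 (myl6, tagln3b, tpm4a, synm, tpm2, lmod1b and smtna), beside 13.3% of all features. The light chain mylpfb had both below, at 22.6 and 21.8 CPM against 24.3 to 27.3 CPM, beside 12.2% of all features. The gene smtnb was within the range of the other libraries only because Select 65 dph replicate 2 reached 194 CPM, above the pair at 184 and 174 CPM. That Select library was also the highest of the other 8 for tpm2, lmod1b and smtna.

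**Figure D3:**
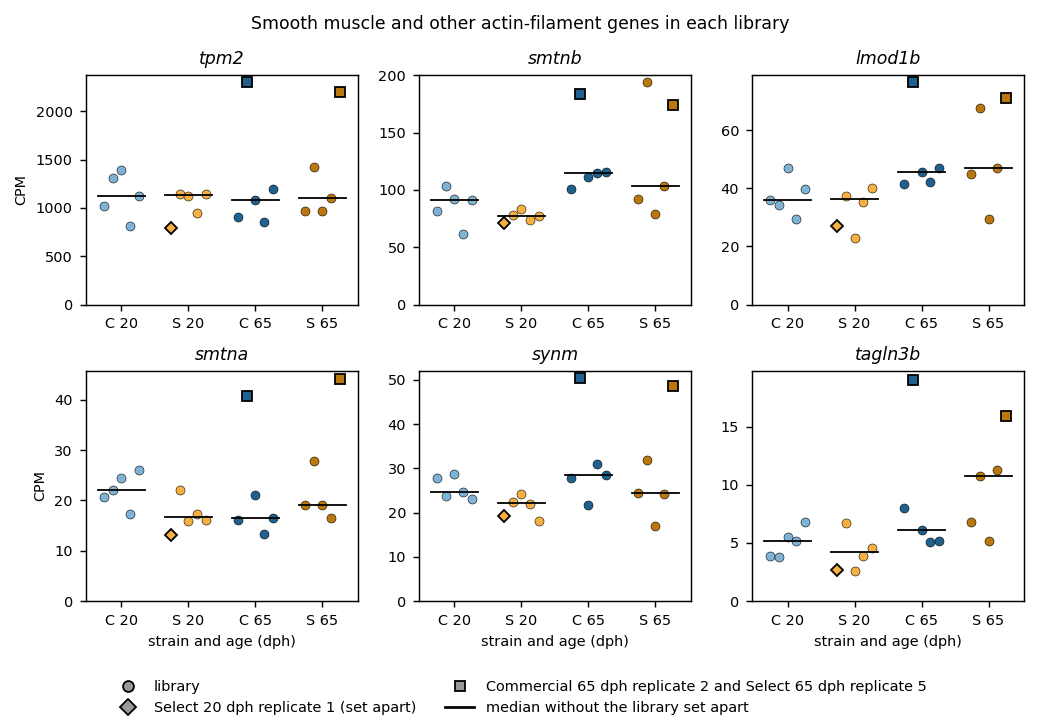
Each point is the level in CPM of a smooth muscle, shared or transgelin gene in 1 library, on a linear axis from 0, for Commercial (C) and Select (S) at 20 and 65 dph, with lines at the group medians without the library set apart. The squares, Commercial 65 dph replicate 2 and Select 65 dph replicate 5, are the highest points for tpm2, smtna, lmod1b, synm and tagln3b, and the remaining points of tpm2 lie between 794 and 1425 CPM at both ages.

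Other genes moved with the muscle genes in this pair. Over all features, both libraries were above the other 8 for 13.3% and below them for 12.2%. Of 10 contraction control genes, 6 were above the other 8 libraries in both, among them jph2 (28.7 and 26.5 CPM against 8.80 to 16.5), which links the plasma membrane to calcium stores, and the guanylate cyclase subunits gucy1a1 and gucy1b1, through which nitric oxide relaxes smooth muscle. Another, rock1, was below in both, at 32.5 and 28.8 CPM against at least 34.7 CPM. All 3 matched enteric neuron and glia genes were above, prph (peripherin) at 28.8 and 28.7 CPM against 7.82 to 18.6 CPM. Among them s100b was low, at 0.760 and 1.27 CPM against at most 0.402 CPM. Of 4 fibroblast and matrix genes 3 were above, and of 8 enterocyte genes 2 were below (anpepb and cdx1b) and 1 above (krt18b). Their part in the levels of the muscle genes was not tested.

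**Figure D4:**
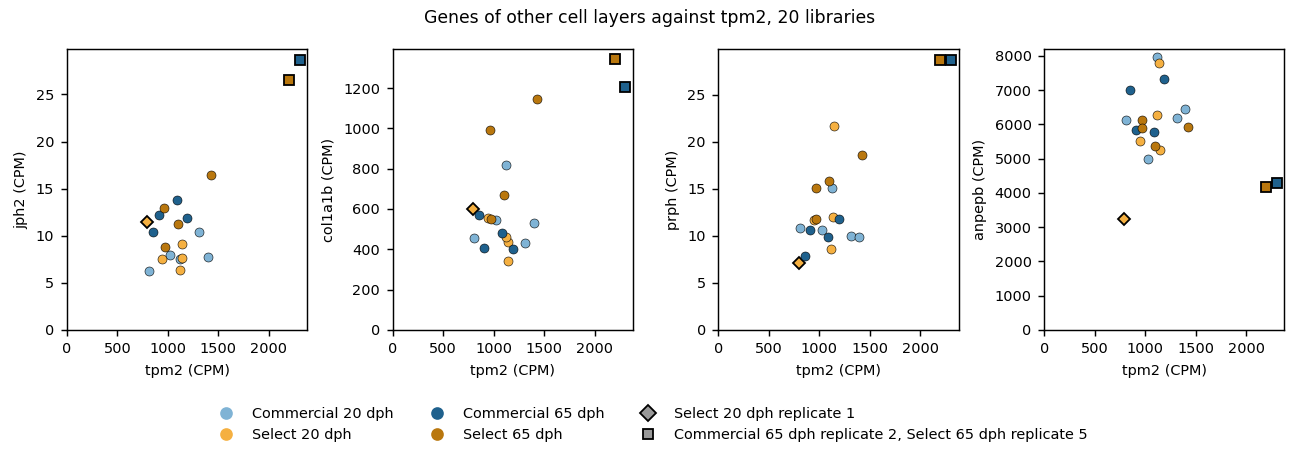
Level of a smooth muscle junction gene (jph2), a collagen (col1a1b), a neuronal filament gene (prph) and an enterocyte peptidase (anpepb) against tpm2, all in CPM on linear axes, in 20 libraries. The 2 squares combine the highest tpm2 (2304 and 2199 CPM) with the highest jph2 and prph, and their anpepb, 4291 and 4178 CPM, is below that of all libraries other than the one set apart, at 3246 CPM.

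With age, smtnb was the smooth muscle member with the highest CPM. In Commercial it stood at 81.4, 104, 92.4, 61.5 and 91.4 CPM at 20 dph and at 101, 184, 112, 115 and 116 CPM at 65 dph, so that only the lowest older library lay under the highest younger library. The log2 fold change was 0.55 ± 0.23 (adjusted p = 0.0837). In Select it stood at 78.0, 83.5, 73.4 and 77.0 CPM at 20 dph and at 91.9, 194, 79.1, 103 and 174 CPM at 65 dph. There smtnb rose by 0.72 ± 0.25 (adjusted p = 0.0334), with 1 older library inside the younger range.

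The Select call of smtnb was lost without both alike libraries (0.59, adjusted p = 0.0590) and on leaving out any of 6 single libraries, with adjusted p values of 0.0599 to 0.0969. These were each of the 4 Select 20 dph libraries and Select 65 dph replicates 2 and 5. With library size alone smtnb was called in both strains, at 0.83 ± 0.26 and 1.01 ± 0.28. The strains' age effects on smtnb differed by 0.18 ± 0.34 (adjusted p = 0.949). The other smoothelin, smtna, had -0.04 ± 0.29 in Commercial (0.26 with library size alone) and 0.51 ± 0.31 in Select, and neither was called. Without the alike pair the values were -0.37 ± 0.17 and 0.21 ± 0.18 (adjusted p = 0.120 and 0.421).

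The leiomodin lmod1b stood at 35.9, 34.1, 46.9, 29.4 and 39.7 CPM in Commercial 20 dph and at 41.5, 76.4, 45.7, 42.1 and 46.9 CPM at 65 dph. In Select it stood at 37.4, 22.8, 35.3 and 40.0 CPM and then at 45.1, 67.5, 29.3, 47 and 70.9 CPM. Ages overlapped in both strains, and the log2 fold changes were 0.44 ± 0.23 (adjusted p = 0.166) and 0.62 ± 0.25 (adjusted p = 0.0688). Called with library size alone, its values were 0.73 ± 0.26 and 0.91 ± 0.28. In Select the omission of Commercial 65 dph replicate 2, or of Select 65 dph replicate 3, made it a call as well (adjusted p = 0.0408 and 0.0202).

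The highest member, tpm2, showed no age effect that was called. In Commercial it stood at 1024, 1311, 1396, 809 and 1122 CPM at 20 dph, and in Select libraries 2 to 5 at 1143, 1120, 944 and 1139 CPM. The older libraries were given above, and all but the alike pair and Select replicate 2 lay within the younger range. The log2 fold change was 0.17 ± 0.27 in Commercial and 0.30 ± 0.29 in Select. It was -0.14 in Commercial without the alike pair, and -0.16 without Commercial 65 dph replicate 2 alone. On the TPM scale, where the samples' scaling differs, the log2 ratio of group means was 0.60 in Commercial and 0.76 in Select.

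The other shared members were flat within their spread. The gene synm, whose protein is an intermediate filament protein of muscle, had 0.32 ± 0.24 in Commercial and 0.43 ± 0.26 in Select, and 0.12 ± 0.15 and 0.17 ± 0.16 without the alike pair. The scaffold gene pdlim5b, whose protein ties signalling kinases to the actin anchor of the Z disc, had 0.07 ± 0.16 and 0.16 ± 0.17. It was the only member of its class with a raised value in the library set apart, 57.8 CPM against at most 42.8 CPM elsewhere, although its TPM there lay within the other libraries' range.

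Among the broadly expressed members, 2 fell with age in both strains under TMM scaling. The regulatory light chain myl12.1 stood at 510, 534, 610, 510 and 541 CPM in Commercial 20 dph and at 441, 368, 373, 358 and 404 CPM at 65 dph. No libraries of the 2 ages overlapped. It fell by 0.48 ± 0.12 (adjusted p = 0.00653). In Select it stood at 619, 579, 524 and 413 CPM and then at 453, 344, 327, 302 and 367 CPM, with 1 library of each age overlapping, and fell by 0.57 ± 0.13 (adjusted p = 0.00267).

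The cytoskeletal tropomyosin tpm4a stood at 54.4, 51.9, 62.5, 46.6 and 38.1 CPM in Commercial 20 dph and at 24.6, 40.3, 28.2, 27.7 and 24.0 CPM at 65 dph. It fell by 0.81 ± 0.21 (adjusted p = 0.00823). In Select it stood at 50.7, 37.1, 40.3 and 46.1 CPM and then at 25.8, 34.8, 15.0, 21.4 and 36.8 CPM, without overlap (1 of 17 members, beside 15.3% of all features), and fell by 0.70 ± 0.22 (adjusted p = 0.0244). Leaving out any of Select 20 dph replicates 2 and 5 and Select 65 dph replicates 3 and 4 ended that call (adjusted p of 0.0542 to 0.0751).

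Neither fall was called with library size alone. The values of myl12.1 were then -0.20 and -0.29 (adjusted p = 0.175 and 0.0657), and those of tpm4a -0.52 and -0.41 (adjusted p = 0.0929 and 0.209). The TPM ratios of group means were -0.07 and -0.13 for myl12.1 and -0.42 and -0.26 for tpm4a on the log2 scale. The essential light chain myl6, partner of myl12.1 in the same motor, was not called (-0.27 ± 0.12 and -0.16 ± 0.13), and its sign turned with library size alone (0.01 and 0.13). It became a call in Commercial when replicate 4 of the younger or replicate 2 of the older group was left out (adjusted p = 0.0489 and 0.0288), and without the alike pair (adjusted p = 0.0349).

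The transgelin tagln3b, of the calponin family of actin-binding proteins, moved the other way. Classes were set by symbol, and which cells of the gut express tagln3b was not tested. In Commercial it stood at 3.84, 3.82, 5.55, 5.15 and 6.79 CPM at 20 dph and at 8.01, 19, 6.15, 5.09 and 5.20 CPM at 65 dph, with a log2 fold change of 0.79 ± 0.38 (adjusted p = 0.131), or 0.31 ± 0.29 without the alike pair. In Select it stood at 6.76, 2.61, 3.89 and 4.53 CPM and then at 6.80, 10.8, 5.15, 11.2 and 16 CPM. It rose there by 1.16 ± 0.42 (adjusted p = 0.0412) and by 0.93 without the alike pair (adjusted p = 0.0322). The call was lost without any of Select 20 dph replicates 3, 4 and 5 or Select 65 dph replicates 2, 4 and 5, at adjusted p of 0.0648 to 0.124.

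The light chain mylpfb, fast skeletal by name, was not called with TMM scaling in any comparison of the 19 libraries. It stood between 14.3 and 35.4 CPM in all 19 libraries and at 22.0 CPM in the library set apart. Its age effect was 0.15 ± 0.15 in Commercial and -0.21 ± 0.16 in Select, and its strain difference at 20 dph was 0.34 ± 0.16 (adjusted p = 0.450). The myomesin myom2b stood between 0.125 and 2.23 CPM outside the library set apart, and was called in no comparison of the 19 libraries.

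Transcripts of tpm2 differed in how they followed the gene. Of 8 annotated transcripts, XM_021601615.1 held 71.4% (SD 3.60, n = 5) of the gene's TPM in Commercial 20 dph and 66.6% to 67.3% on average in the other groups. The transcript XM_021601612.1 held 17% and 21.9% in Commercial at 20 and 65 dph, and 18.9% and 25.2% in Select. Another, XM_021601619.1, held 7.56% to 14.9% in all libraries at 20 dph. These shares rest on the division of shared reads between transcripts by the quantifier.

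The transcript XM_021601619.1 did not rise with the gene in the alike pair. Its level was 48.3 TPM in Commercial 65 dph replicate 2 and 34 TPM in Select 65 dph replicate 5, or 3.06% and 2.14% of the gene, while XM_021601615.1 reached 1149 and 1197 TPM. In the other 8 libraries of that age XM_021601619.1 stood at 44.8 to 90.3 TPM, or 4.70% to 14.8%. The lowest of these shares was again Select 65 dph replicate 2, the library next to the pair in tpm2. No test was run on these shares.

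**Figure D5:**
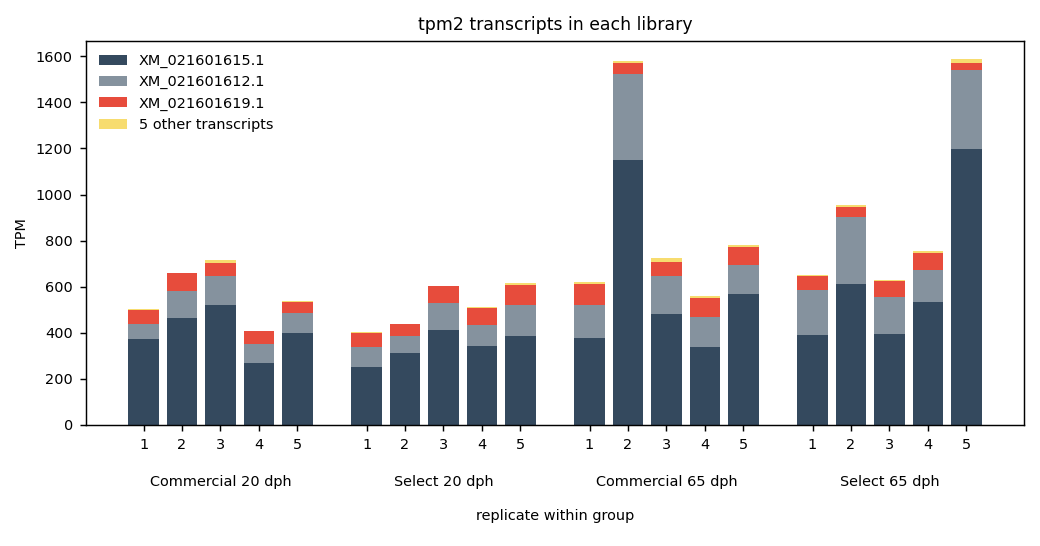
Stacked bars give the TPM of tpm2 transcripts in each of the 20 libraries, on a linear axis from 0. The bars of Commercial 65 dph replicate 2 and Select 65 dph replicate 5 are the tallest, through XM_021601615.1 and XM_021601612.1, while the red segment of XM_021601619.1 is 48.3 and 34 TPM there against 44.8 to 90.3 TPM in the other 8 libraries of that age.

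Control genes of contraction were split with age. Of 10 tested, 3 were higher and 2 lower in Commercial, and 4 higher and 1 lower in Select, beside 30.3% and 31.1% of all features called in either direction. With library size alone 5 were higher and 1 lower in Commercial, beside 25.3% and 9.01% of all features. In Select 6 were then higher and 1 lower, beside 25.1% and 9.88%. Without the alike pair, 3 were lower in Select. The calcium channel trpc6a rose by 3.23 ± 0.74 and 4.97 ± 0.95 (adjusted p = 0.00293 and 0.000755), from at most 0.469 CPM at 20 dph, and slmapb, a membrane-associated protein gene of muscle, rose by 1.34 ± 0.37 and 1.41 ± 0.40 (adjusted p = 0.0108 and 0.0120). Without the alike pair slmapb had 0.86 ± 0.24 and 1.11 ± 0.26, and trpc6a 2.74 ± 0.69 and 4.41 ± 0.88, all still called. In Select libraries 2 to 5 at 20 dph trpc6a stood at 0.125, 0, 0.122 and 0 CPM, so few reads decide its fold change there. The gene rhoab was lower in all older libraries. In Commercial it stood at 87.4 to 101 CPM at 20 dph and at 58.3 to 62.0 CPM at 65 dph. In these Select libraries it stood at 75.2 to 103 CPM and then at 51.6 to 64.3 CPM at 65 dph.

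The remaining lists around the muscle moved as follows. Over all features 14.6% were higher and 15.7% lower with age in Commercial, and 14.8% and 16.3% in Select. With library size alone these shares were 25.3% and 9.01% in Commercial, and 25.1% and 9.88% in Select. The lists hold few genes, so their counts are a description. Of 4 smooth muscle regulators 0 were called in Commercial, and pdgfra (1.03 ± 0.35, adjusted p = 0.0328) and mrtfba (0.59 ± 0.16, adjusted p = 0.0103) rose in Select. Of 4 fibroblast and matrix genes, pdgfra again and col1a1b and sparc rose in Select (1.07 ± 0.33 and 1.09 ± 0.33, adjusted p = 0.0207 and 0.0180) and none in Commercial. Without the alike pair the Select values of pdgfra, col1a1b and sparc were 0.84, 0.91 and 0.90 (adjusted p = 0.00895, 0.0126 and 0.0115). With library size alone all 4 genes of each of these lists were higher in Select, and sparc in Commercial. Of 2 tested pacemaker cell genes, ano1a rose in Commercial by 1.66 ± 0.56 (adjusted p = 0.0324), while etv1 was not called there. Levels of ano1a were low, at 0.178 to 0.544 CPM in Commercial 20 dph, and Commercial 65 dph replicate 5 lay below these at 0.113 CPM. Neither pacemaker gene was called with age in Select. In each strain 2 of 2 mitosis genes were lower with age, and 2 of 5 endothelium and erythrocyte genes were higher. These counts were the same with library size alone. The 2 tested enteric neuron and glia genes and the 2 tested genes of skeletal excitation and energy were not called with age. With library size alone, 1 of these 2 skeletal genes was higher in Commercial and 2 in Select. Without the alike pair, 1 of 3 tested skeletal genes was higher in Commercial and 0 in Select. Of 8 enterocyte genes 2 were higher and 4 lower in Commercial and 3 lower in Select, vil1 among the lower in both (-0.51 ± 0.11 and -0.45 ± 0.11). With library size alone 3 enterocyte genes were higher and 2 lower in Commercial, 2 higher and 2 lower in Select, and vil1 was not called (adjusted p = 0.0588 and 0.168). No gene of these lists was called in the edgeR interaction test, and the lists themselves were not tested for it.

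Likeness was ranked only among tested genes with a symbol other than a LOC number. Of these, 5 genes outside the contractile list were most like the mean scaled log2 CPM of the 3 smooth muscle members over 19 libraries. They were dcbld2, fez1, rbpms2a, jph2 and pgm5. Their Pearson correlations were 0.92, 0.91, 0.91, 0.91 and 0.90, as a description over libraries that share depth, age and strain. Over the 17 libraries without the alike pair the values were 0.81, 0.80, 0.81, 0.73 and 0.76. The gene rbpms2a, an RNA-binding protein gene, stood at 85.2 and 80.2 CPM in the alike pair and between 17.3 and 62.7 CPM in the other 17 libraries.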

How the data were processed

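Whole-intestine poly(A) RNA was sequenced in 20 libraries. Per the submitters' processing notes the authors used Salmon 1.2.1, and the deposited tables list for 78931 transcripts an expected count and a TPM, per the file headers; 34.3% of the expected counts were not whole. Transcript release, genome build and read filters: not given in the sources used here. Deposited expected counts are not normalised; TPM is scaled by length and depth.

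A RefSeq table gave the gene of each transcript (assembly USDA_OmykA_1.1, for names only), 42376 without version and 1083 with it. They held 66.5% of reads; unmatched transcripts stayed single features. Reads of near-identical gene copies can be divided between them, so values of single copies are uncertain. Sums per gene were rounded to whole counts. edgeR 4.0.16 in R 4.3.3 was used: TMM, filterByExpr by group, 4 group means, a robust quasi-likelihood fit to 19 libraries, 2-sided F-tests, Benjamini-Hochberg over 33171 features, threshold 0.05. The SE is the size of the fold change (log2) divided by the root of F. CPM uses TMM factors of all 20 libraries. Ratios of summed counts were scaled by library size times TMM factor. Intervals cover counting error only, at a level of 95%, since reads carried no molecular identifiers. The code was tested on simulated data.

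Members, gene lists, role classes and tests were chosen with earlier results of these data known. Named were the 4 highest tested members per role, called members and the 8 highest striated members in the library set apart. So were the 5 most alike genes with a symbol. A rule of 3 genes per neighbouring list by adjusted p was followed in part. No gene is named from the mitosis list or the endothelium and erythrocyte list. Other genes were chosen after their values were seen. The list rule for nebulin took in nebl. Alternatives were DESeq2 1.42.0, limma-voom 3.58.1, RLE factors, other filters, a replicate block, TPM, all 20 libraries and libraries left out. Library size without TMM was added after seeing the data. No sequence is shown, since no sequence table was used.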

Additional observations from a re-analysis of the deposited data

Results flagged for a closer look

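Levels of the 20 members that reached 1 CPM in any library were searched in each group of 5 libraries, Select 20 dph replicate 1 included. Dixon's test for a library far from the others was run in 80 gene-by-group sets. It flagged 20 sets, 11 of them outside Select 20 dph replicate 1. Chance flags about 1 in 20 sets when the sets are independent. This rate cannot be applied to Select 20 dph replicate 1, since it was set apart for high values of these genes. Nor can it be applied to the other 11 flags. Most of them fall in Commercial 65 dph replicate 2 and Select 65 dph replicate 4, where several genes stood out together. Some are on genes with few counts. The flags are therefore a description, and whether they exceed chance was not tested. In Select 20 dph replicate 1, 9 striated genes stood far above the rest of their group: atp2a1l at 1280 CPM, pvalb1 at 457, pvalb2 at 380, ckmb at 320, myl1 at 172, myom2b at 61.6, myom1b at 53.5, myl13 at 2.28 and tnni1c at 1.74 CPM. In Select 65 dph replicate 4, 4 of the same genes did: atp2a1l at 21.6 CPM, pvalb1 at 10.4, ckmb at 5.21 and pvalb2 at 2.72 CPM. In Commercial 20 dph replicate 2, atp2a1l stood at 7.17 CPM.

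In Commercial 65 dph replicate 2 it was the smooth muscle and actin-filament genes that stood far from the group: tpm2 at 2304 CPM, smtnb at 184, lmod1b at 76.4, smtna at 40.7, tpm4a at 40.3 and tagln3b at 19 CPM. Select 65 dph replicate 5, the other library of the alike pair, did not pass this limit in its own group. The origin of these levels was not tested.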

How the results depend on the processing

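Features called between strains at 20 dph numbered 46; they were 567 with DESeq2, 20 without a filter, 7 with the replicate block, 73 without the alike pair and 0 to 86 on leaving out single libraries (0 without Commercial 20 dph replicate 2, 86 without Commercial 65 dph replicate 2). Members lower there were 1 with DESeq2 and 1 without the alike pair, myl1 each time, in place of 0, and 0 to 1 on leaving out libraries. Those calls of myl1 are a description of the libraries kept. Between strains at 65 dph DESeq2 called 173 features, the fit without the alike pair 71, and leaving out libraries 0 to 162 (162 without Commercial 65 dph replicate 2). For the difference of age effects the counts were 104, 1 and 0 to 2. With age in Commercial, members higher were 1 with the replicate block (smtnb) and 4 with library size alone, and members lower were 2 with all 20 libraries, 3 with limma-voom and 2 with library size alone. In Select, members higher were 0 with limma-voom, 0 without a filter and 4 with library size alone, and members lower were 8 with all 20 libraries and 0 with library size alone. Leaving out libraries gave 4 to 6 lower in Commercial and 0 to 4 higher and 1 to 2 lower in Select. Among the results followed through every alternative, reversed values were 2.24 for myl1 between strains at 20 dph with all 20 libraries, and -0.14 (without the alike pair) and -0.16 (without Commercial 65 dph replicate 2) for tpm2 with age in Commercial (range -0.16 to 0.28 on leaving out libraries). The sign also turned for pvalb1 in Select without Select 65 dph replicate 4 (-1.47), and with library size alone for myl6 (0.01 and 0.13) and for smtna in Commercial (0.26). The cause was not tested.

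Replicate numbers did not pair the libraries: deviations of 27 same-numbered pairs correlated between -0.124 and 0.151, 2 of them over 0.1, and 5 of 19 libraries correlated best with their own number. Apart from the counts above, the replicate block ended the myom1b call in Commercial (adjusted p = 0.0544). Low counts limit pvalb1, ckmb, myl1 and the troponins, for which few reads decide a value.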
